A study of Rattus norvegicus with 28 samples.

Results

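The nucleus accumbens (NAc), a part of the ventral striatum, was compared between rats given the histone mutant H3.3Q5A and rats given wild-type H3.3 (H3.3WT). The comparison used 14 of the 28 libraries in the series, 7 for each virus, chosen by the region and virus in the sample titles and virus labels, and it covered all 15635 genes of the deposited table. All animals were young adult male Sprague-Dawley rats with 10 days of cocaine self-administration under extended access behind them. One group then received the lentivirus lenti-pCDH-H3.3WT in the NAc of both sides, the other lenti-pCDH-H3.3Q5A. Seeking of cocaine-associated cues was tested after forced abstinence, 30 days into viral expression. Both groups therefore share the drug history, the surgery, a lentivirus and added H3.3. The groups used here hold no animal without virus and none without cocaine. The labels do not give the promoter that drives the transgene, the cells it enters, the share of tissue that carries it, or whether a library is 1 animal. P-values therefore set a group difference against the spread between these libraries, which may not be the spread between animals.

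H3.3 is a variant of histone H3 that is placed into chromatin throughout the life of a cell, also in neurons that no longer divide. A glutamine in its tail lies beside a lysine whose methylation marks active promoters, and a transglutaminase can attach dopamine to that glutamine. In the mutant, Q5A, alanine stands in place of this glutamine at position 5, so dopamine cannot be attached there. The NAc is rich in spiny projection neurons, which receive dopamine from the midbrain and glutamate from the cortex, hippocampus, amygdala and thalamus. The study asks, by its title, about a part of this modification in cocaine seeking after abstinence. Neither the modification nor behaviour is measured in the count table.

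Genes are given by their Ensembl identifiers, because the deposited table pairs none with a symbol, and 0 of 15635 identifiers matched the reference gene table. For the same reason the NAc label was not checked against marker genes, the levels of endogenous H3.3 genes are not given, and lists of pathway and cell type genes written as symbols were not analysed here. Levels are in CPM, reads assigned to the gene per megacount of assigned reads, scaled by the TMM factors of each library. A fold change is the log2 ratio of the H3.3Q5A to the H3.3WT level, given with its standard error (SE). In bulk tissue, fewer cells of a type and less RNA per cell cannot be told apart.

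The 14 libraries held 15.4 to 51.7 M counts (M, megacounts; median 26.1 M), and 15603 to 15634 genes had at least 1 count in a library. The total count averaged 26.7 ± 5.93 M (SD, n = 7) with H3.3WT and 26.6 ± 11.5 M with H3.3Q5A. The H3.3Q5A minus H3.3WT difference was −0.132 M (two-sided exact permutation test, p = 0.982, adjusted p = 0.982 over 3 library measures). H3.3Q5A replicate 22 alone held 51.7 M, and without it the H3.3Q5A mean was 22.4 ± 3.60 M (SD, n = 6) and the difference −4.32 M (exact permutation test, p = 0.150). The 10 most abundant genes took 3.44 ± 0.433% of counts with H3.3WT and 3.42 ± 0.329% in the mutant group (exact permutation test, adjusted p = 0.982). Each group held 3 libraries marked P1 and 4 marked P2 in their titles. The labels do not say what the mark stands for.

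A pair of libraries, 1 in each group, stood apart from the rest. H3.3WT replicate 17, a P2 library, had a median Spearman correlation with the other libraries of 0.964, and H3.3Q5A replicate 3, a P1 library, one of 0.978. In the other 12 libraries this median was 0.988 to 0.994. The first principal component of log2 CPM, which held 28.9% of the variance, placed replicate 17 at 67.9 and replicate 3 at 34.96, with the other 12 between −14.8 and −4.10. The counts of genes past 2-fold from the median of the other 12 libraries and beyond all 12 of them show how far the pair lay. In replicate 17 there were 536 such genes above and 1049 below, and in replicate 3 there were 548 above and 331 below. When each of the other 12 was measured against its 11 companions, the highest numbers were 167 above and 161 below.

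Only part of that displacement was common to the pair. On the second principal component (18.5% of the variance) replicate 17 lay at −23.5 and replicate 3 at 41.8, at opposite ends. The other 12 lay between −19.0 and 17.5 on it. The deviations of the pair from the median of the other 12 had a Spearman correlation of 0.367 across genes. Of 15315 genes tested, a set of 224 was above, and 60 were below, the other 12 libraries in both. ENSRNOG00000001057, the most abundant gene of the first set, was at 2212 CPM in H3.3WT replicate 17 and 2519 CPM in H3.3Q5A replicate 3, where the other 12 libraries held 877 to 1202 CPM. ENSRNOG00000054212, the most abundant of the second set, was at 30.5 and 18.2 CPM, where the others held 59.1 to 84.9 CPM.

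The libraries were also examined without this pair. Over the remaining 12, the first principal component held 25.3% of the variance. On it 5 of 6 H3.3WT libraries lay between −23.5 and −7.42, and the sixth, replicate 21, lay at 23.7, the highest of all 12. The H3.3Q5A libraries lay between −8.05 (replicate 19) and 22.03 (replicate 18). The groups thus overlapped through H3.3WT replicate 21 and H3.3Q5A replicate 19.

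**Figure D1:**
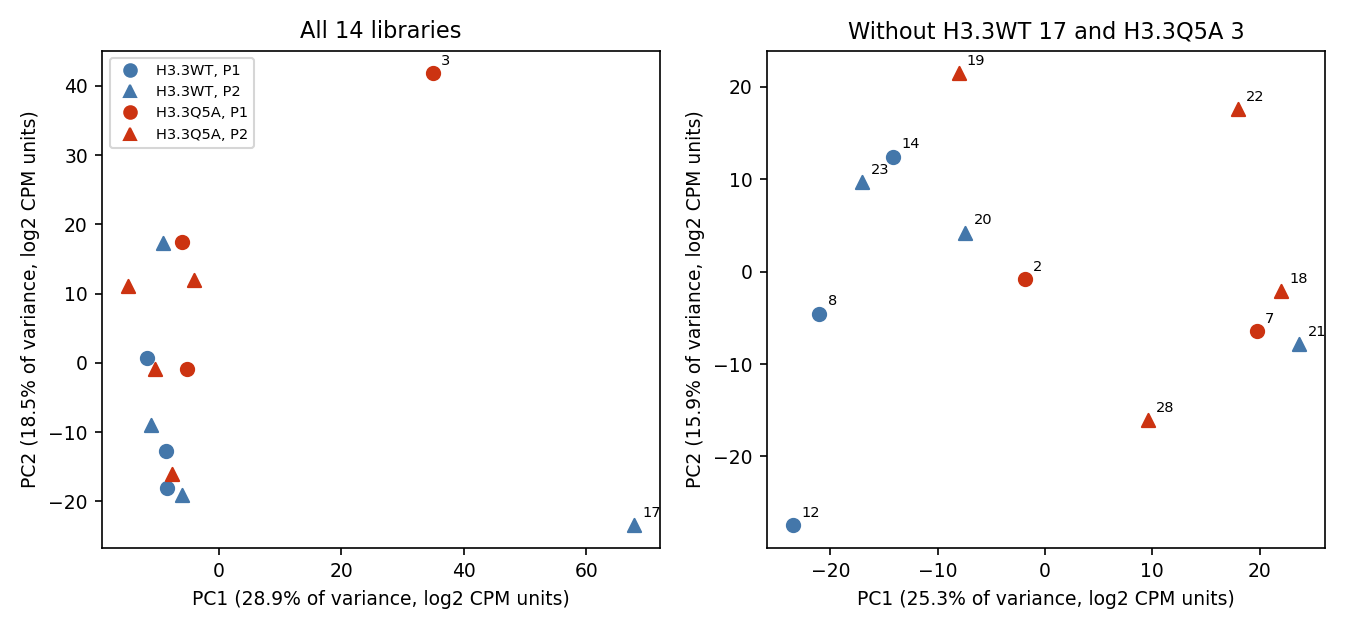
Principal components of log2 CPM over the genes tested, with each point 1 library, the color giving the virus and the shape the P mark; numbers are replicate numbers. On the left, H3.3WT replicate 17 (67.9) and H3.3Q5A replicate 3 lie far from the other 12 on the first component. On the right, without them, H3.3WT replicate 21 (23.7) lies just above the highest H3.3Q5A library (22.03) on the first component.

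No gene passed the edgeR quasi-likelihood test of H3.3Q5A against H3.3WT with the P mark as a term. It called 0 of 15315 genes (0%) at an adjusted p under 0.05, and the smallest adjusted p was 0.637. At an unadjusted p under 0.05 there were 1200 genes, 7.84% of those tested. Of these, 539 (3.52%) were higher and 661 (4.32%) lower with H3.3Q5A. Without H3.3WT replicate 21 that count was 2128, and without H3.3Q5A replicate 7 it was 713. Without the pair of libraries that stood apart it was 1547 and edgeR still called 0 genes. The 14 and the 12 libraries shared 773 such genes, 64.4% of the first list and 50% of the second. All 773 had the same direction in both. The 12 libraries are among the 14, so this shared direction is built in and adds no support.

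The differences were small over the whole range of expression. The median log2 fold change of all genes tested was 0.01, and the middle 50% lay between −0.09 and 0.11. Among 2424 genes at a mean of 100 CPM or more, 71 were higher and 135 lower at an unadjusted p under 0.05. Among 7858 genes at 10 to 100 CPM the numbers were 286 and 318, among 3880 genes at 1 to 10 CPM 147 and 163, and among 1153 genes under 1 CPM 35 and 45. The lower side thus held more genes in each of the 4 classes, and the share at that limit was 6.94% to 8.50% in all of them. The median size of the log2 fold change of the genes at that limit was 0.21 in the most abundant class and 0.67 in the least abundant one.

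Precision set how much of this could be seen. The median SE was 0.118 over all genes, 0.0956 at 100 CPM or more and 0.272 under 1 CPM. The 95% confidence interval of the fold change lay within 1.25-fold either way for 6458 genes, 42.2% of those tested. This share was 55.98% at 100 CPM or more, 58.2% at 10 to 100 CPM, 13.5% at 1 to 10 CPM and 0% under 1 CPM. For those 6458 genes a difference of 1.25-fold or more lay outside the interval. Without the pair of libraries that stood apart the median SE was 0.0844, and the share within 1.25-fold was 58.6% of the same 15315 genes.

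**Figure D2:**
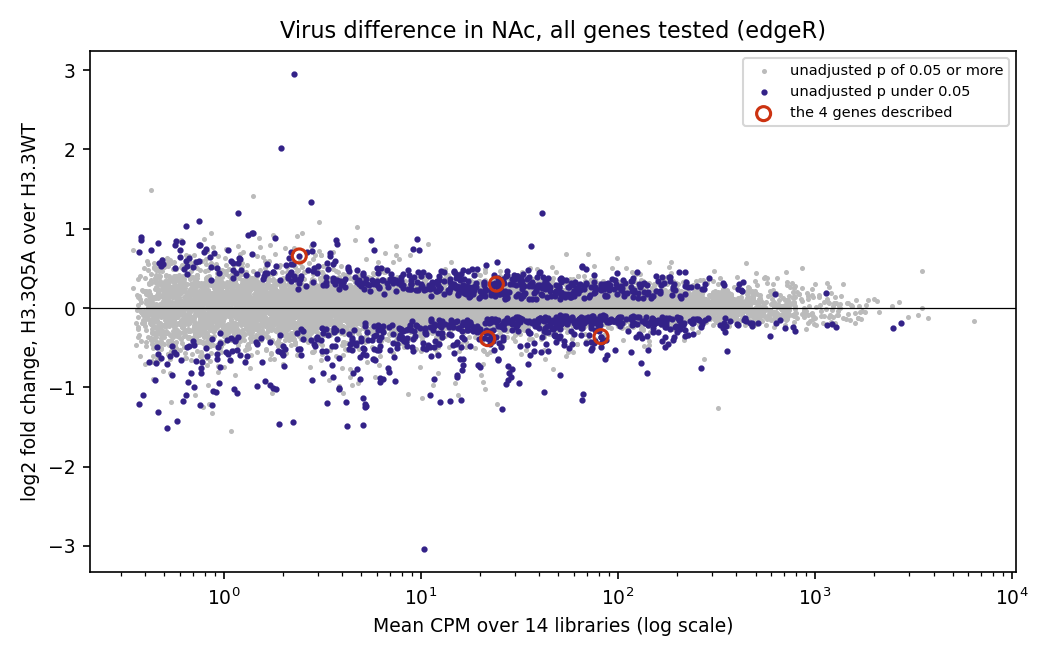
Fitted log2 fold change of H3.3Q5A over H3.3WT (vertical axis) against the mean CPM over 14 libraries (horizontal axis, log scale), with 1 point a gene. Dark points are the 1200 genes at an unadjusted p under 0.05 and rings mark the 4 genes described by library; most genes lie near 0 and the spread widens toward low levels.

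Fold changes of 2 or more were found mostly on the lower side. A fitted log2 fold change of at least 1 in size was reached by 61 genes, 11 higher and 50 lower with H3.3Q5A, and 43 of the 61 had an unadjusted p under 0.05. The 50 lower genes, chosen by this contrast and so given as a description only, had a median level of 3.58 CPM. Their mean over the set was 2.95 log2 CPM in H3.3WT replicate 12, 2.59 in replicate 8 and 2.44 in replicate 23, but 0.27 in H3.3WT replicate 21. With H3.3Q5A it ran from 0.10 in replicate 22 to 1.63 in replicate 19. The groups overlapped, and 31 of the 50 genes had their highest level in H3.3WT replicate 12.

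Many of these folds fell short of 2-fold when certain single libraries were left out. All 50 genes were lower with H3.3Q5A in both P1 and P2 libraries, with a median log2 fold change of −1.76 in P1 and −0.82 in P2. The number still 2-fold lower was 23 without H3.3WT replicate 23, 25 without H3.3WT replicate 12, and 33 without H3.3Q5A replicate 3 or 7. These were the largest drops, and with other single libraries left out it was up to 49. The genes were chosen at 2-fold in all 14 libraries, so the number could only fall. It was 43 without the pair that stood apart. Of the 11 higher genes, 5 had their highest level in H3.3Q5A replicate 3, and 7 were still 2-fold higher without that library or without H3.3WT replicate 21.

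Some genes had no overlap between the groups. For 10 genes (0.0653% of those tested) every H3.3Q5A library lay above every H3.3WT library, and for 18 genes (0.118%) every H3.3Q5A library lay below. The 10 had a median log2 fold change of 0.46 and a median level of 5.81 CPM. The 18 had a median log2 fold change of −0.19 and a median level of 55.4 CPM. The complete separations on the lower side were thus of small size in well-expressed genes, with the smallest at a log2 fold change of 0.09 in size. None of these 28 genes passed the edgeR test, since that test called 0 genes.

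The genes with the smallest p-values at 1 CPM or more are shown by library, the first pair higher and the second pair lower with H3.3Q5A. ENSRNOG00000012031 was at 1.49 to 2.18 CPM with H3.3WT (median 1.80) and at 2.28 to 3.66 CPM with H3.3Q5A (median 3.14). All 7 H3.3Q5A libraries were above all 7 H3.3WT libraries. The log2 fold change was 0.66 (SE 0.13), at an edgeR adjusted p of 0.637, and it was 0.72 (SE 0.21) in P1 and 0.61 (SE 0.18) in P2 libraries.

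ENSRNOG00000052051 was at 19.9 to 24.4 CPM with H3.3WT (median 21.2) and at 24.04 to 30.2 CPM with H3.3Q5A (median 26.9). Of the 7 H3.3Q5A libraries, 6 were above the highest H3.3WT library. Its log2 fold change was 0.30 (SE 0.07), at 0.37 (SE 0.10) in P1 and 0.25 (SE 0.09) in P2 libraries, with an edgeR adjusted p of 0.637.

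ENSRNOG00000006789 was at 22.5 to 29.8 CPM with H3.3WT (median 23.9) and at 17.6 to 20.1 CPM with H3.3Q5A (median 18.95). The groups did not overlap. The SD was 0.831 CPM with H3.3Q5A and 2.52 CPM with H3.3WT (n = 7 each), and the latter was 1.35 CPM without H3.3WT replicate 17, the highest library. The log2 fold change was −0.39 (SE 0.07; edgeR adjusted p = 0.637), and it was −0.40 in P1 and −0.38 in P2 libraries.

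ENSRNOG00000019961 was at 83.5 to 102.6 CPM with H3.3WT (median 90.5) and at 60.6 to 84.8 CPM with H3.3Q5A (median 72.7). Of the H3.3Q5A libraries, 6 lay below the lowest H3.3WT library. Its log2 fold change was −0.36 (SE 0.07; edgeR adjusted p = 0.637). Here the P1 and P2 values lay further apart, at −0.48 (SE 0.10) and −0.27 (SE 0.08), a difference of 0.21 (SE 0.13) with an edgeR adjusted interaction p of 0.698. These 4 genes were chosen by p in the same libraries, so their separation adds no support.

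**Figure D3:**
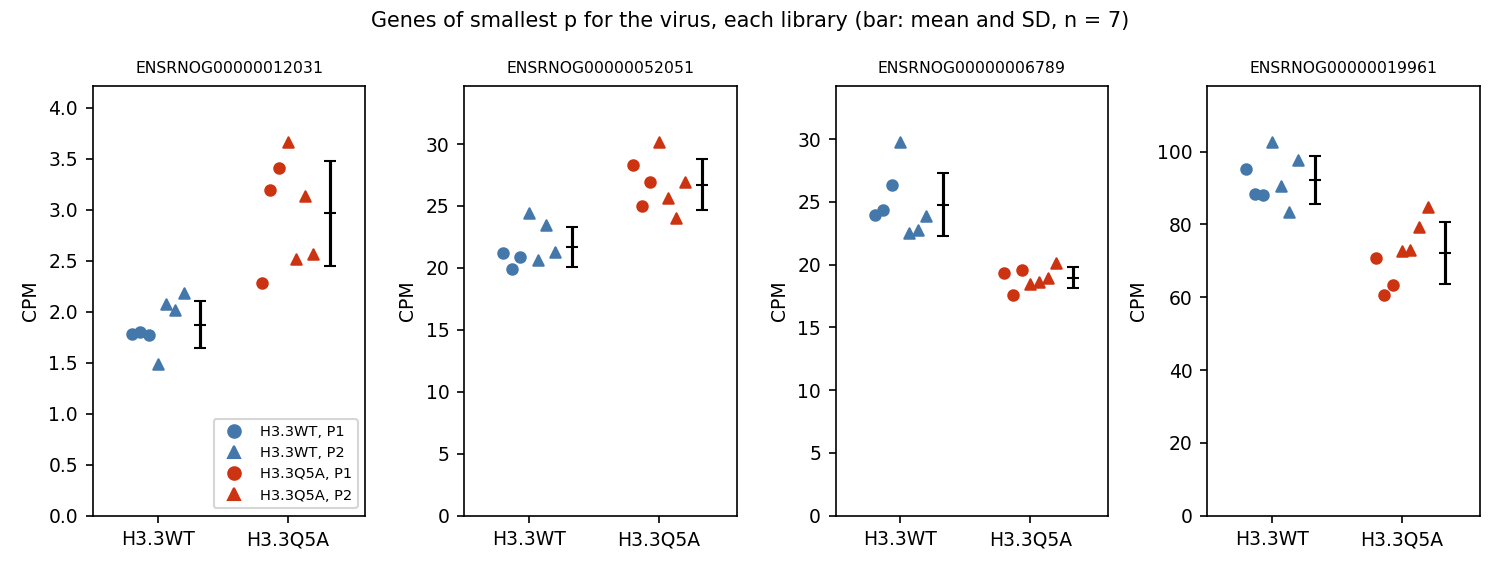
CPM of the 4 genes of smallest p for the virus, with each point 1 library, circles for P1 and triangles for P2, and the black bar showing the mean and SD of 7 libraries. For ENSRNOG00000012031 and ENSRNOG00000006789 the groups do not overlap, and for the other pair 6 of 7 H3.3Q5A libraries lie beyond the H3.3WT range.

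Another count model gave a few calls. DESeq2 called 9 genes (0.0578% of 15576 with an adjusted p), 4 higher and 5 lower with H3.3Q5A, at a log2 fold change of 0.22 to 0.72 in size and a mean of 2.42 to 82.2 CPM. They include the 4 genes above, at DESeq2 adjusted p-values of 0.0235, 0.0393, 0.00158 and 0.00179 in the order given. All 9 had the same direction in P1 and P2 libraries, and 7 of them had no overlap between the groups. The 9 genes were chosen by p in the same libraries, so neither count adds support. limma voom with sample quality weights called 4 genes (0.0261%), 3 of which were among the 9. The DESeq2 count rested on single libraries. It was 406 without H3.3WT replicate 21, 51 without H3.3Q5A replicate 19 and 36 without H3.3WT replicate 17. It was 17 and 15 without H3.3Q5A replicates 2 and 22, and 4, 5 and 5 without H3.3WT replicates 8, 14 and 20. It was 2 and 4 without H3.3Q5A replicates 7 and 18. Without both libraries that stood apart it was 46, 24 higher and 22 lower, with 7 of the original 9 among them.

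The P mark divides the libraries into sets that share no sample, so the virus difference could be read separately in each. With all 14 libraries, the P1 and P2 log2 fold changes had a Spearman correlation of 0.0147 across 15315 genes, and the same sign in 51.4% of them. Genes are not independent replicates, and both values came from the same normalization and fit, so these correlations are descriptions. Without H3.3WT replicate 17 (P2) and H3.3Q5A replicate 3 (P1) the Spearman correlation was 0.263 across 15344 genes, and 60.3% had the same sign. Among the genes at 10 CPM or more it was −0.03 (10282 genes) with all libraries and 0.347 (10288 genes) without the pair. Leaving out replicate 17 alone gave 0.194 over all genes and leaving out replicate 3 alone 0.202. Leaving out any other single library gave −0.115 to 0.0887.

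**Figure D4:**
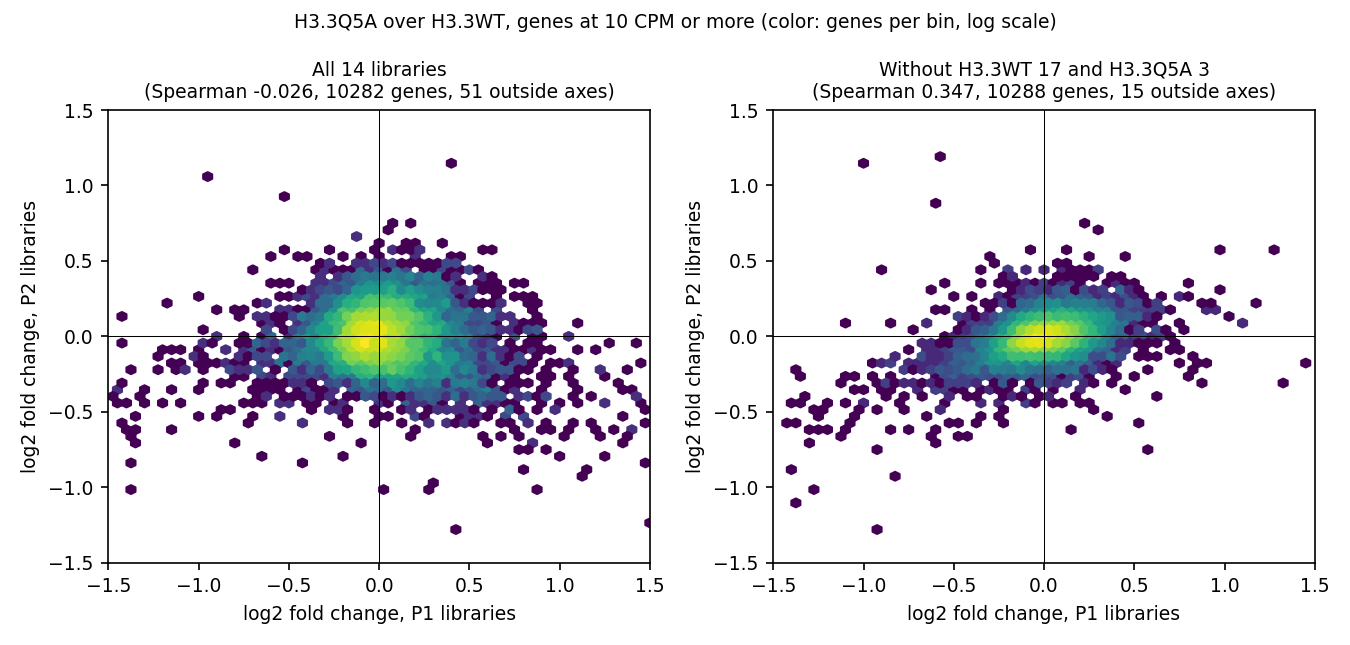
Log2 fold change of H3.3Q5A over H3.3WT in P1 libraries (horizontal) and P2 libraries (vertical) for genes at 10 CPM or more, with color giving the number of genes per bin on a log scale. With all 14 libraries the cloud shows little lean (Spearman −0.03, 51 genes outside the axes) and is wider along P1 (SD 0.292) than P2 (SD 0.203). It leans toward the diagonal without H3.3WT replicate 17 and H3.3Q5A replicate 3 (Spearman 0.347, 15 genes outside the axes).

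The difference between the P1 and P2 effects was also tested gene by gene. The edgeR interaction test called 0 of 15315 genes (0%), at a smallest adjusted p of 0.697, and DESeq2 called 0. An unadjusted p under 0.05 was reached by 1017 genes (6.64%). For 710 of these the H3.3Q5A value relative to H3.3WT was lower in P2 than in P1, and for 307 it was higher. The count was 348 without H3.3Q5A replicate 3, 1780 without H3.3Q5A replicate 2 and 666 without H3.3WT replicate 8. Without both libraries that stood apart it was 576. The median SE of the virus effect was 0.177 in P1 and 0.153 in P2 libraries, and 0.132 and 0.110 without the pair. In the same fit, the virus effect had an unadjusted p under 0.05 for 1689 genes in P1 and 522 in P2. These numbers were 690 and 623 without H3.3Q5A replicate 3, and 1596 and 523 without the pair.

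Genes of smallest interaction p showed opposite virus differences in the 2 marks and none over all libraries. ENSRNOG00000014461 with H3.3Q5A was at 18.99 to 19.3 CPM in P1 libraries and at 11.01 to 11.5 CPM in P2 libraries. With H3.3WT it was at 10.4 to 15.9 CPM in P1 and 13.6 to 20.1 CPM in P2. The virus difference was 0.51 (SE 0.16) in P1 and −0.51 (SE 0.14) in P2, and the edgeR adjusted interaction p was 0.697. ENSRNOG00000028904 was at 50.7 to 61.1 CPM with H3.3WT and 64.1 to 77.2 CPM with H3.3Q5A in P1. In P2 it was at 65.6 to 80.2 CPM with H3.3WT and 54.7 to 62.6 CPM with H3.3Q5A. Within each mark the groups did not overlap, in opposite directions, and the edgeR adjusted interaction p was 0.697. The genes shown for the interaction were chosen by its p in the same libraries, so their patterns add no support.

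The other direction was shown by ENSRNOG00000029813. In P1 it was at 5.02 to 6.89 CPM with H3.3WT and 2.73 to 3.64 CPM with H3.3Q5A, and in P2 at 3.44 to 4.80 CPM with H3.3WT and 3.59 to 7.90 CPM with H3.3Q5A. ENSRNOG00000021555 was at 4.50 CPM or more in a pair of P1 libraries with H3.3WT and a pair of P2 libraries with H3.3Q5A, and under 1 CPM in the other 10. Its fitted P2 minus P1 difference of 5.99 (SE 1.55; edgeR adjusted p = 0.697) came from those 4 libraries. The P mark by itself gave 0 calls in edgeR (0%), with 681 genes at an unadjusted p under 0.05 (4.45%), and 1 call in DESeq2.

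**Figure D5:**
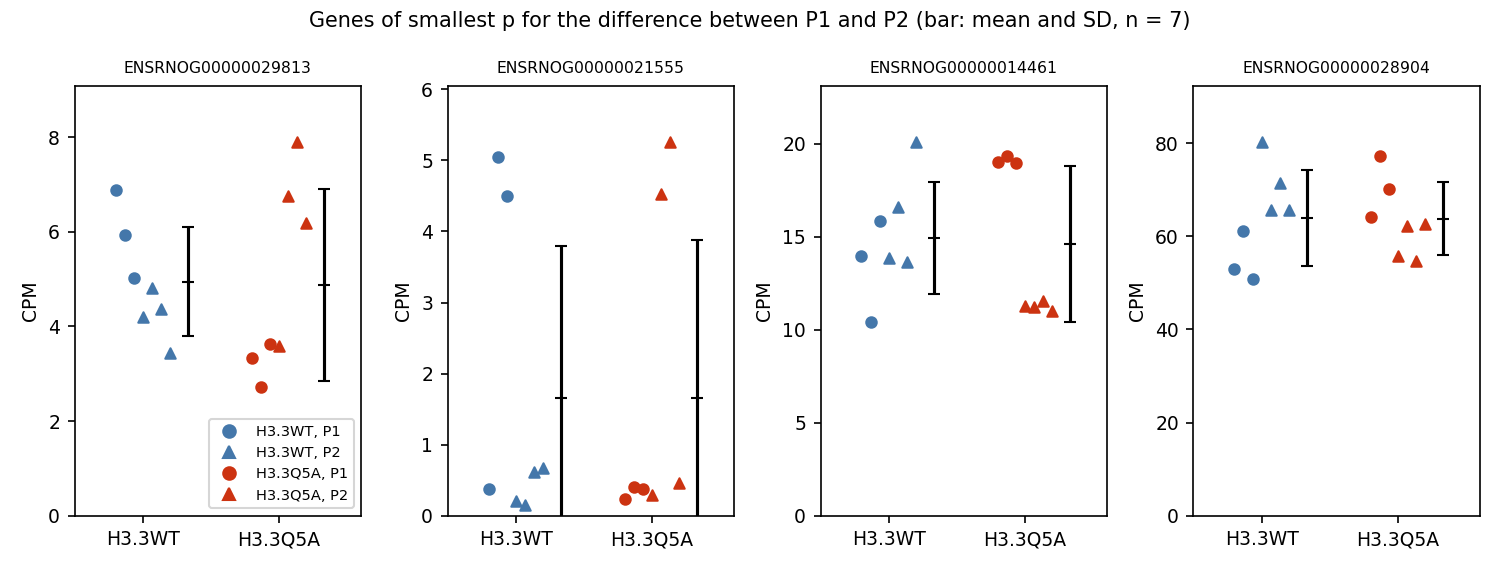
CPM of the 4 genes of smallest p for the difference between the P1 and P2 effects, with each point 1 library, circles for P1 and triangles for P2, and the black bar showing the mean and SD of 7 libraries. The H3.3Q5A libraries of ENSRNOG00000014461 lie at 18.99 to 19.3 CPM in P1 and at 11.01 to 11.5 CPM in P2, while the means of the virus groups nearly coincide.

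The spread between libraries was larger with H3.3WT. For the 10282 genes at 10 CPM or more, the median SD of log2 CPM after removal of the P mark was 0.198 in the H3.3WT group and 0.131 in the H3.3Q5A group, and the SD was larger with H3.3Q5A for 27.5% of genes. Without H3.3WT replicate 17 the medians were 0.111 and 0.131, and 60.1% of genes had the larger SD with H3.3Q5A. Without both libraries that stood apart they were 0.111 and 0.101, and the share was 42.2%. Without H3.3Q5A replicate 3 alone they were 0.198 and 0.101, and the share was 16.3%. The order of the groups in spread thus turned only when H3.3WT replicate 17 was left out and H3.3Q5A replicate 3 was kept.

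Over the 14 libraries, 2 genes had 2 separate levels at least 8-fold apart with at least 3 libraries on each side. ENSRNOG00000006365 was at 15.8 to 32.4 CPM in 7 libraries and at most 0.651 CPM in the other 7. It was high in 5 H3.3WT and 2 H3.3Q5A libraries, which were 5 of the 6 marked P1 and 2 of the 8 marked P2. Its fitted log2 fold change of −3.04 was the largest on the lower side (edgeR unadjusted p = 0.0202). ENSRNOG00000012067 was at 6.28 to 20.996 CPM in 5 libraries, 2 with H3.3WT and 3 with H3.3Q5A (1 marked P1 and 4 marked P2), and at most 0.513 CPM in the other 9. Both genes were chosen after their values were seen.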

How the data were processed

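Polyadenylated RNA was sequenced after Trizol extraction and RNeasy Micro cleanup, with Illumina TruSeq RNA V2 libraries, per the labels' protocols. HISAT2 2.1.0, featureCounts 2.0.1, DESeq2 1.6.3 and build rn6 are named in the submitters' processing notes. Which step used each tool, the annotation release and the strand setting are not given in the sources used here. Per the file, the table deposited by the authors holds raw, unnormalized counts per Ensembl gene, 1 column a library. The 14 NAc columns were matched to samples by title, and the mPFC columns were not used.

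edgeR 4.0.16 in R 4.3.3 tested the virus with the P mark as an additive term (quasi-likelihood F test, TMM factors, filterByExpr), and the interaction with that mark. Of 15635 genes, 320 were dropped by the filter. Adjustment was by Benjamini-Hochberg, with calls under 0.05. SEs come from the same fit. DESeq2 1.42.0 and voom of limma 3.58.1 were alternatives, with other scalings, filters and libraries left out. Log2 CPM used a prior count of 2. The edgeR tests were tested on simulated counts with seeded folds, in which no library was made to stand apart. The virus test recovered 8% of genes seeded at 1.25-fold, 58% at 1.5-fold and 82% at 2-fold. Most virus differences of 1.25-fold would thus be missed. The interaction test recovered 0%, 2% and 36% at the same folds, so most interactions of 2-fold would be missed. No pair of libraries in a group agreed within sampling noise (lowest chi-square per degree of freedom 7.77).

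The rule for named genes took genes called by edgeR or DESeq2, the smallest p-values at 1 CPM or more and members of symbol lists. It also took the largest fold changes among genes at an unadjusted p under 0.05. Without symbols it was limited to 2 identifiers each way per comparison, so the remaining genes called by DESeq2 are not named. The comparison and the lists were chosen with earlier results of these data known. The precision of each fold change is given by its SE.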

Additional observations from a re-analysis of the deposited data

Results flagged for a closer look

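In groups of 7 libraries, 32 sets of values were examined for a lowest or highest library that lay far from its nearest neighbour, and 7 had one. Chance gives about 1 in 20 for a single set. The sets are not independent, since related measures flagged the same library, so the count cannot be judged against that rate. H3.3WT replicate 17 had a median correlation of 0.964 with the other libraries (nearest in its group 0.988) and a first component of 67.9 (nearest −5.96). H3.3Q5A replicate 3 had a median correlation of 0.978 (nearest 0.991), a first component of 34.96 (nearest −4.10), 4.14% of counts in the 10 most abundant genes (nearest 3.45%) and a TMM factor of 0.863 (nearest 1.01). H3.3Q5A replicate 22 had a total of 51.7 M counts (megacounts; nearest 26.4 M). None of the 8 genes shown by library had such a library in either group.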

How the results depend on the processing

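The number of genes called by edgeR for the virus was 0 under other scalings, other filters, without the P term, in P1 or P2 libraries alone and with robust estimation of the spread. It was 0 to 1 with each library left out, the 1 call being without H3.3WT replicate 12. DESeq2 called 9 genes and voom 4, and without the pair that stood apart DESeq2 called 46 and voom 0. The DESeq2 count was 2 to 406 with each library left out. The number at an unadjusted p under 0.05 was 713 to 2128 with each library left out. It was 1744 in P1 and 372 in P2 libraries alone, 2971 with voom and 2776 with voom without the pair. DESeq2 called 1 gene for the P mark. The Spearman correlation of P1 and P2 effects was −0.115 to 0.202 with each library left out, and 0.263 without the pair. The interaction count stayed at 0 in each setting run. The 4 genes shown for the virus kept their direction in all 27 settings. Each passed an adjusted p of 0.05 in 1 to 3 of them. These genes were chosen by p, and the settings reuse the same libraries, so the kept direction adds no support. The causes of the changes between settings were not tested. The settings without the pair, with robust spread, DESeq2 with each library left out, and the total counts and 1 gene's SD without 1 library were chosen after seeing the data. No paired analysis was possible because the NAc groups share no replicate number. Gene lists by symbol were not analysed here.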
